A study of Mus musculus with 26 samples.

Results

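The genes described here build, anchor or maintain the sarcomere, the contractile unit of heart muscle, and were measured in the left ventricle of BPN/3J and BPH/2J mice. They are 31 genes, chosen by name from a table of 40413 genes, and all 31 were among the 15543 genes that passed the filter on low counts. The study asked what Cmpd17b, an agonist of formyl peptide receptors, does in hypertensive mice. BPN/3J is an inbred line with normal blood pressure and BPH/2J an inbred line with high blood pressure, so blood pressure and the other inherited differences between the lines cannot be told apart. Adult mice were injected intraperitoneally with Cmpd17b at 50 mg/kg/day or were given vehicle, in both cases for 28 days. The groups were BPN/3J on vehicle (BPN_vehicle, 7 libraries), BPN/3J on Cmpd17b (BPN_Cmpd17b, 5 libraries), BPH/2J on vehicle (BPH_vehicle, 7 libraries) and BPH/2J on Cmpd17b (BPH_Cmpd17b, 6 libraries). Each library carried the identifier of a different animal. The labels name 2 batches without saying what they are. Batch 1 held 20 of the 25 libraries, among them all 5 of BPN_Cmpd17b, and batch 2 held 5.

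In a sarcomere, thick filaments of myosin pull on thin filaments of actin. Tropomyosin and the troponin complex lie along the thin filament and open it to myosin when calcium rises. Thin filaments are anchored in the Z-disc and thick filaments in the M-band, titin spans the distance between them, and dedicated chaperones and ubiquitin ligases fold and clear these proteins. In the adult mouse ventricle most of these genes are expressed as a cardiac isoform whose fetal, atrial or skeletal relatives are kept low.

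Total counts ran from 25476100 to 48648200 per library, and mitochondrially encoded genes took 26.2% to 38.7% of them. The 31 genes together took 6.71% to 9.09% of all counts, with a median of 7.65%. A further library, labelled BPH_Cmpd17b replicate 7, was left out beforehand as kidney-like, and its kidney marker levels are not given here. Of the 31 genes 30 were lower in it than in every other library, with Myom3 the exception. With all 26 libraries scaled together, its Myh6 stood at 12.4 CPM (counts scaled to a common library size), against 13442 to 23505 CPM elsewhere. In the other 25 libraries the ventricular markers were high in each, with Myh6 at 13252 CPM or more. Summed kidney tubule markers (8 genes) reached 123 CPM in BPN_vehicle, 160 in BPN_Cmpd17b, 97.7 in BPH_vehicle and 84.2 in BPH_Cmpd17b. Of 7 kidney markers tested, 1 was lower in BPH/2J under vehicle and 1 under Cmpd17b, against 9.73% and 6.65% of all genes tested. Within those 25, BPN_vehicle replicate 7 and BPH_Cmpd17b replicate 6 stood apart and had the lowest sample quality weights of limma voom, 0.0799 and 0.33. Summed endothelial markers (8 genes) reached 2624 CPM in BPN_vehicle replicate 7, against 935 to 1185 CPM in the other 6 libraries of its group, and summed fibroblast markers (8 genes) reached 2520 CPM in BPH_Cmpd17b replicate 6, against 768 to 900 CPM in the other 5. The first of these libraries was the lowest of its group in 18 of the 31 genes and the second in 21. Values below are CPM scaled by TMM, and differences are on the log2 scale with their standard error (SE).

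Divided by exon length, the genes spanned a wide range of levels, also among genes of the same place in the sarcomere. The thin filament actin Actc1 was highest at 4866 ± 561 CPM per kb (SD over the 25 libraries). Next came the ventricular regulatory light chain Myl2 at 4242 ± 715, the main adult heavy chain Myh6 at 2797 ± 408 and the essential light chain Myl3 at 2704 ± 261 CPM per kb. Myh6 and Myl3 differed by less than their spread. Cardiac troponin C (Tnnc1, 2362 ± 358), the Z-disc titin cap Tcap (2152 ± 538) and cardiac troponin I (Tnni3, 1808 ± 265) followed. Each differed from the gene before it by less than the larger of their SDs. Titin, at 3229 CPM one of the larger read totals, came to 27.6 ± 4.30 CPM per kb over its 116.825 kb of exons. The lowest genes were Mypn, a Z-disc and nuclear palladin-like protein (14.1 ± 2.86), the nebulin relative Nebl (13.2 ± 1.81) and, well below all others, the M-band gene Myom3 (0.743 ± 0.324 CPM per kb). Exon lengths are of the GENCODE M21 annotation, on another build than the counts, and a gene's expressed isoforms are shorter than the union of its exons.

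**Figure D1:**
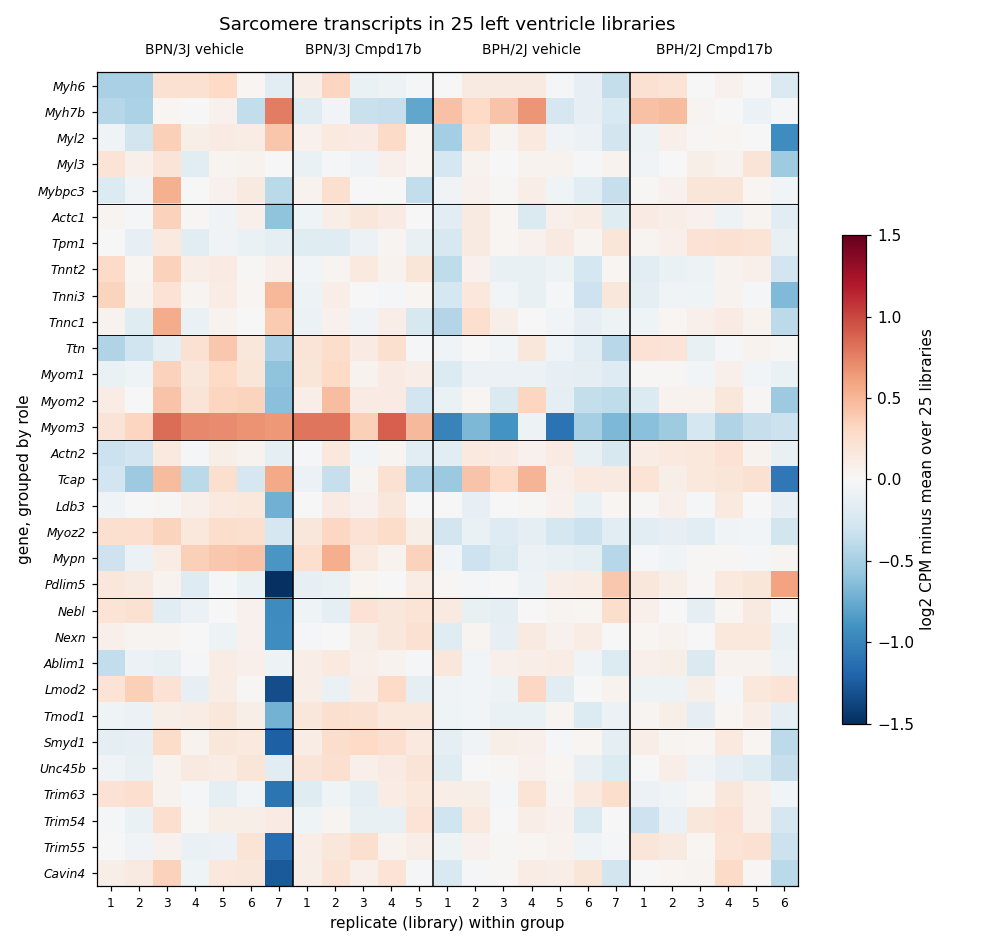
Heat map of the 31 genes (rows, grouped by role) in 25 libraries (columns, by group and replicate number), coloured by log2 CPM minus that gene's mean over the 25 libraries. Myom3 changes colour between the strains, and in BPN_vehicle replicate 7, 18 of the 31 genes are the lowest of the group.

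How the hypertensive strain differed without the drug was read from the ventricles of both strains on vehicle. Of the 31 genes 3 were lower in BPH/2J and 0 higher (edgeR quasi-likelihood test, adjusted p under 0.05), the M-band protein gene Myom3, the Z-disc gene Myoz2 and the cardiac troponin T gene Tnnt2. Among all genes tested 18.9% were called, 9.73% as lower and 9.16% as higher, and the share of the 31 genes, all of it lower, was 9.68%, near the background of lower calls. The median difference of the 31 was -0.02, against -0.0008 over all genes tested, and the median size regardless of sign was 0.105, against 0.169. In whole-ventricle RNA, fewer cardiomyocytes and less RNA per cardiomyocyte cannot be told apart. The summed CPM of 12 cardiomyocyte markers outside the sarcomere overlapped between the strains. It ran from 21702 to 34882 CPM in BPN_vehicle and from 28902 to 35183 CPM in BPH_vehicle. Taken singly, 10 of the 12 markers were higher in BPH/2J by estimate, with a median difference of 0.19, and edgeR called 1 as higher.

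Myom3 encodes myomesin-3, a member of the myomesin family that cross-links thick filaments at the M-band and is best known from slow and intermediate skeletal fibres. It ran from 4.66 to 7.25 CPM in BPN_vehicle with a median of 6.49, and from 1.89 to 3.86 CPM in BPH_vehicle with a median of 2.54. No BPH_vehicle library reached the lowest BPN_vehicle library. Mean levels were 6.18 ± 0.938 CPM (SD, n = 7) and 2.56 ± 0.667 CPM (n = 7), a log2 difference of -1.26 ± 0.13 (edgeR adjusted p = 2.46e-08), with all 7 BPN_vehicle libraries above all 7 of BPH_vehicle. No other gene of the 31 was without overlap under vehicle, where 2.96% of all genes tested were without overlap as lower and 3.4% as higher. Both batches held the difference, at -1.32 in batch 1 (adjusted p = 7.38e-07) and -1.08 in batch 2 (adjusted p = 0.0235). The gene rested on few reads, 57 to 295 per library over the 25 libraries, so this large difference concerned the least expressed of the 31 genes.

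Myoz2 encodes calsarcin-1, which ties alpha-actinin to the phosphatase calcineurin at the Z-disc. It stood at 616 to 925 CPM in BPN_vehicle with a median of 871, and at 587 to 688 CPM in BPH_vehicle with a median of 644. The lowest BPN_vehicle value was that of replicate 7, the library with high endothelial markers, and lay inside the BPH_vehicle range, while the other 6 were at 823 CPM or more and above all of BPH_vehicle. The log2 difference was -0.40 ± 0.08 (edgeR adjusted p = 0.000453, 6 of 7 libraries). Without BPN_vehicle replicate 7 it was -0.46. Within batch 1 it was -0.37 (adjusted p = 0.00955), and batch 2, with 2 libraries per strain, gave -0.47 (adjusted p = 0.0849).

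Tnnt2, which encodes the troponin subunit that binds tropomyosin, ran from 7038 to 8851 CPM in BPN_vehicle (median 7428) and from 5349 to 7254 CPM in BPH_vehicle (median 6446). The groups overlapped, with 5 of 7 BPN_vehicle libraries above all of BPH_vehicle. Its log2 difference of -0.26 ± 0.08 had an adjusted p of 0.028 by edgeR. The call ended within batch 1 (-0.23, adjusted p = 0.0779) and batch 2 (-0.31, adjusted p = 0.428), without any 1 of 4 libraries (BPH_vehicle replicates 1 and 6, BPN_vehicle replicates 1 and 3, adjusted p = 0.0674 to 0.0785), with no filter on low counts (adjusted p = 0.0999), with only the 2 groups in the fit (adjusted p = 0.0721) and with all 26 libraries (adjusted p = 0.887).

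The regulatory windows of Myom3 and Myoz2, the pair called lower in BPH/2J under both treatments, are shown for what they hold just upstream of the start. They are the 250 bases before the transcription start in RefSeq, build GRCm38.p6, read 5′ to 3′ on the gene's strand, from the C57BL/6J reference and not from BPN/3J or BPH/2J. Capitals mark a match to the MEF2 motif, which myocyte enhancer factor 2 proteins bind, found on either strand. Myom3 lies at chr4:135759465-135759714 on the plus strand and Myoz2 at chr3:123034988-123035237 on the minus strand.
Myom3: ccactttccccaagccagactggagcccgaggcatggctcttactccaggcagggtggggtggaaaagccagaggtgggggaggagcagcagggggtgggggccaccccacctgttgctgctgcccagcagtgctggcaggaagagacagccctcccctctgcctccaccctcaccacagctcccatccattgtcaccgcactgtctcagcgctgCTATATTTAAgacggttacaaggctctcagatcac
Myoz2: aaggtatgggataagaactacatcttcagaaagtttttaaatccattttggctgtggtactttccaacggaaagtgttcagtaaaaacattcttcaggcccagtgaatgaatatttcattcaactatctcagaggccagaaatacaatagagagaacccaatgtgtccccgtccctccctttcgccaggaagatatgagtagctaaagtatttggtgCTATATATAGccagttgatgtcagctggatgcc
In Myom3 the match lay 35 to 26 bases before the start, and in Myoz2 it lay 33 to 24 bases before it, so both fall in the stretch where a TATA box usually lies. Of the 31 genes 27 had a window in the table, 38 windows in all, and Trim55, Nexn, Myom2 and Tcap had none. The MEF2 motif stood in 10.5% of the 38 windows, those of Mybpc3, Myom3, Myoz2 and Ttn, and in 2.92% of 32851 windows of the same length over all genes. The CArG box of serum response factor stood in 15.8% of them (Actc1, Ldb3, Myl3, Myom1 and Nebl), against 1.47% of all windows. CATTCC, the MCAT element of TEAD factors, stood in 28.9% of them, among them 1 of the 2 windows of Tnnt2, against 12.6% of all. The TATA box core TATAAA was found in 21.1% of the 38 windows and in 12.4% of all. The E-box CANNTG, bound by basic helix-loop-helix factors, was found in 73.7% and 66.2%. AGATAA, a motif of GATA factors, was found in 18.4% of the 38 windows and in 9.99% of all. Every motif was counted on both strands and was free to overlap the others. Unc45b held none of the MEF2, CArG and MCAT motifs. A match is a description of these letters and not evidence that a factor binds there.

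The thick filament genes were not called in the strain comparison under vehicle. Myh6, the fast alpha heavy chain of the adult mouse ventricle, ran from 13252 to 22929 CPM in BPN_vehicle (median 18975) and from 14493 to 20468 CPM in BPH_vehicle (median 18558). The ranges overlapped almost wholly, and the log2 difference was 0.03 (95% interval -0.16 to 0.23). Myl2 had the smallest adjusted p of these 5 genes, 0.141 by edgeR, with a difference of -0.19. Myl3, the brake-like myosin-binding protein C gene Mybpc3 and the slow-type heavy chain gene Myh7b had differences of -0.08, -0.09 and 0.23. Myh7b is the gene whose interval reached farthest among those not called, to 0.57.

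In the thin filament and its calcium switch, the troponin genes other than Tnnt2 had estimates of the same sign without passing the threshold. Tnni3, the inhibitory subunit that phosphorylation tunes in heart, stood at 3766 to 5199 CPM (median 3977) in BPN_vehicle and 2966 to 4144 CPM (median 3590) in BPH_vehicle. These ranges overlapped, with 3 of 7 BPN_vehicle libraries above all of BPH_vehicle, and the difference was -0.24 (edgeR adjusted p = 0.0982). Without BPH_vehicle replicate 7 it was called (-0.31, adjusted p = 0.0302). For the calcium-binding subunit Tnnc1 the difference was -0.17 (adjusted p = 0.244). Actc1 and alpha-tropomyosin (Tpm1) had differences of -0.02 and 0.11 (adjusted p = 0.914 and 0.36).

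Titin and the other myomesins were not called by edgeR in the 25 libraries. In the same libraries limma voom called Myom1 (-0.26, adjusted p = 0.000545) and Myom2 (-0.37, adjusted p = 0.00418). Its quality weights counted BPN_vehicle replicate 7 at only 0.0799, so that library had little part in the voom values. Ttn, the molecular spring of the sarcomere, differed by -0.02 (edgeR adjusted p = 0.929). Myom1, the general M-band cross-linker, ran from 654 to 1262 CPM (median 1111) in BPN_vehicle and from 861 to 936 CPM (median 913) in BPH_vehicle. In 5 of 7 BPN_vehicle libraries it lay above all of BPH_vehicle, and the lowest value was again that of BPN_vehicle replicate 7. Its difference was -0.19 (adjusted p = 0.187), and without that library -0.28 (adjusted p = 0.000345). Myom2, a myomesin of fast fibres and adult heart, moved from -0.25 (adjusted p = 0.225) to -0.35 (adjusted p = 0.0129) on leaving the library out. In the Z-disc the same held for Mypn, which went from -0.24 (adjusted p = 0.212) to -0.36 (adjusted p = 0.00275). Without BPN_vehicle replicate 7, then, 6 of the 31 genes were lower in BPH/2J in place of 3, while the share of all genes called rose from 18.9% to 24.2%. The part of that library's endothelial signal in these results was not tested.

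Of the other Z-disc genes, the actin cross-linker Actn2 differed by 0.05, Tcap by 0.16, the PDZ and LIM adaptor Ldb3 by 0.02 and the LIM adaptor Pdlim5 by 0.24, with edgeR adjusted p between 0.315 and 0.936. Without BPN_vehicle replicate 7, where Pdlim5 was low at 197 CPM, the difference of Pdlim5 was 0.09. The 5 genes of actin binding and thin filament length had differences between -0.04 and 0.10: Nebl, the actin-binding Nexn and Ablim1, the filament elongator Lmod2 and the pointed-end cap Tmod1. The 6 genes of assembly and turnover had differences between -0.09 and 0.18. They were the methyltransferase gene Smyd1, the myosin chaperone gene Unc45b, the ubiquitin ligase genes Trim63, Trim54 and Trim55, and the caveolar protein gene Cavin4. For all 28 genes that were not called, the 95% interval of the strain difference lay within 1.5-fold in either direction.

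**Figure D2:**
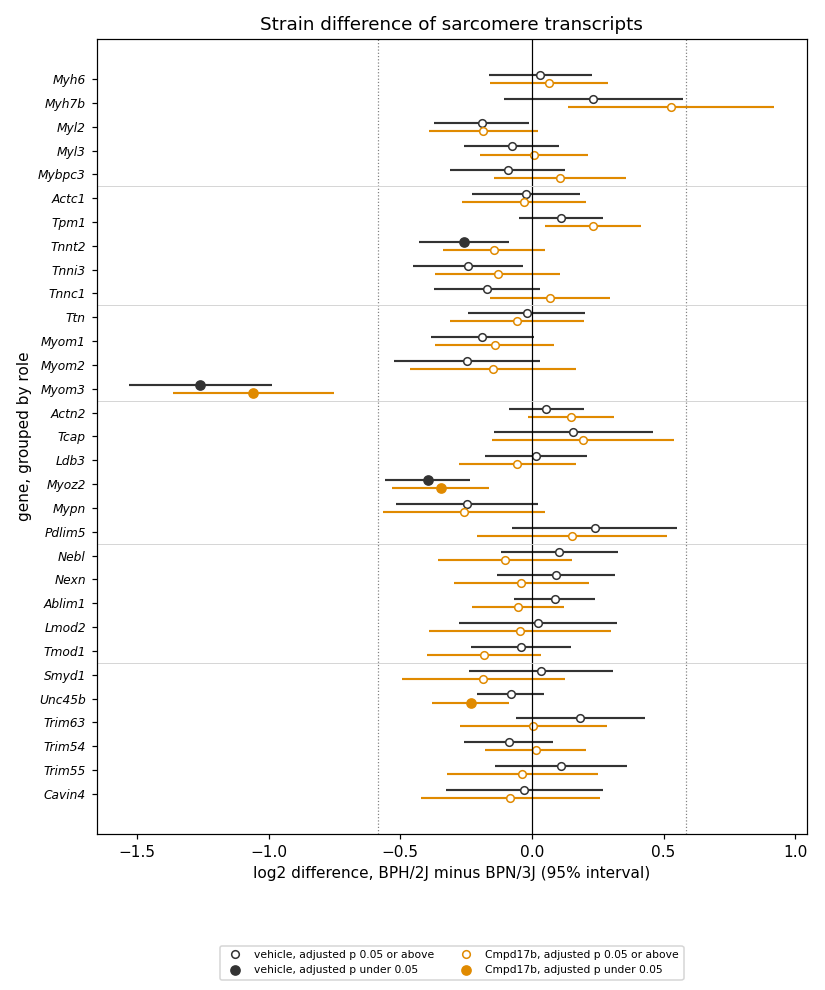
Log2 difference of BPH/2J minus BPN/3J for the 31 genes (rows, by role), under vehicle (black) and under Cmpd17b (orange), with 95% intervals; filled points have an adjusted p under 0.05 and dotted lines mark 1.5-fold. Filled points are Myom3 at -1.26 and -1.06, Myoz2 at -0.40 and -0.35, Tnnt2 under vehicle and Unc45b under Cmpd17b, all to the left of 0.

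How the strains differed on the drug was read from the mice given Cmpd17b. These libraries are other animals than those on vehicle. Again 3 of the 31 genes were lower in BPH/2J and 0 higher by edgeR, Myom3, Myoz2 and the myosin chaperone gene Unc45b. Among all genes tested 14.1% were called, 6.65% as lower and 7.48% as higher, and the share of the 31 genes was again 9.68%, all of it lower. Their median difference was -0.05, against 0.0094 over all genes tested.

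Myom3 stood at 7.09, 7.07, 5.20, 7.56 and 5.72 CPM in the 5 BPN_Cmpd17b libraries and at 2.63 to 3.38 CPM in BPH_Cmpd17b (median 3.08). Every BPN_Cmpd17b library lay above every BPH_Cmpd17b library. The log2 difference was -1.06 ± 0.15 (edgeR adjusted p = 4.87e-06), and within batch 1 it was -1.13 (adjusted p = 7.44e-06). The corresponding values of Myoz2 were 826, 913, 857, 888 and 784 CPM in BPN_Cmpd17b and 609 to 713 CPM in BPH_Cmpd17b (median 669). Here too the groups did not overlap, and the difference was -0.35 ± 0.09 (adjusted p = 0.00793, 5 of 5 libraries). In batch 1 the difference of Myoz2 was -0.33 (adjusted p = 0.0224).

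Unc45b, which encodes the co-chaperone that folds the myosin head, stood at 131, 135, 121, 125 and 131 CPM in BPN_Cmpd17b and at 90.2 to 123 CPM in BPH_Cmpd17b (median 108). Of the 5 BPN_Cmpd17b libraries 4 lay above all of BPH_Cmpd17b, and the lowest BPH_Cmpd17b value was that of replicate 6, the library with high fibroblast markers. The log2 difference of Unc45b was -0.23 ± 0.07 (edgeR adjusted p = 0.0258). In batch 1 alone the call ended (-0.22, adjusted p = 0.0592), as it did without any 1 of 6 libraries (BPH_Cmpd17b replicates 4, 5 and 6, BPN_Cmpd17b replicates 1, 2 and 5, adjusted p = 0.0537 to 0.0645), with no filter on low counts (adjusted p = 0.102) and with all 26 libraries (adjusted p = 0.682). Exons of Unc45b overlap the opposite-strand transcript Unc45bos over 5.68% of their bases. The use of strand in counting is not known, but Unc45bos itself had a mean count of 18.9, against 3949 for Unc45b. Under vehicle Unc45b differed between the strains by -0.08 (adjusted p = 0.419), and Tnnt2, called under vehicle, differed by -0.14 under Cmpd17b (adjusted p = 0.378). A difference between the treatments in either gene was not detected: the interaction was -0.15 for Unc45b and 0.11 for Tnnt2 (adjusted p = 0.917 for both).

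**Figure D3:**
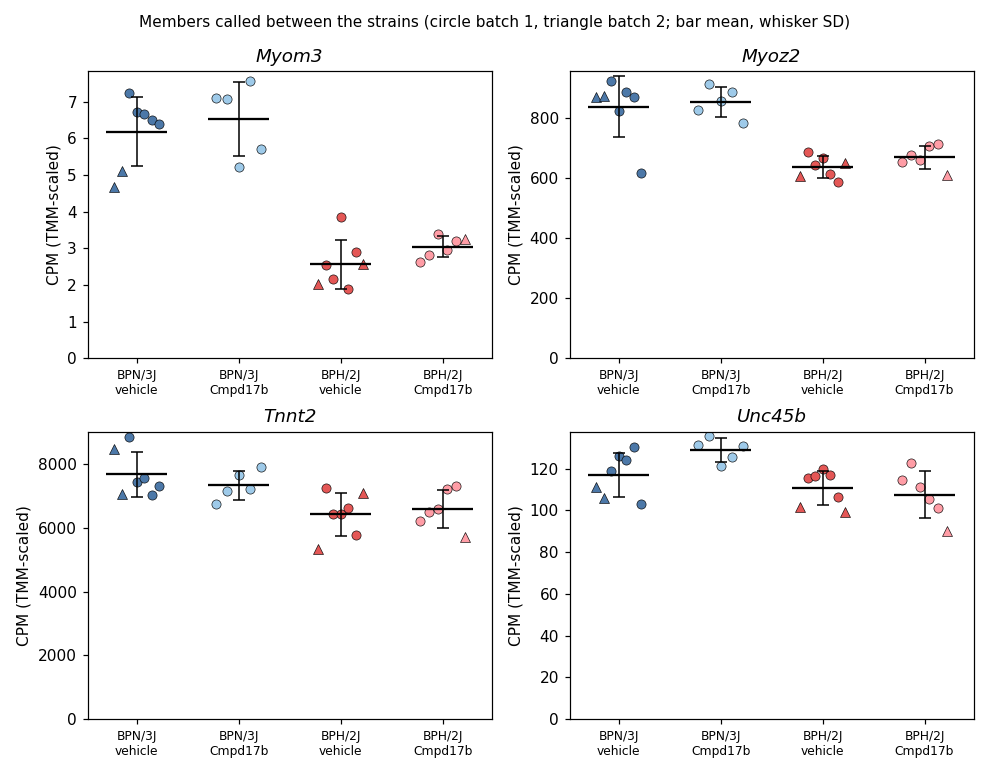
CPM of the 4 genes called between the strains, per library (circles batch 1, triangles batch 2), in the 4 groups, with the mean (bar) and SD (whisker); each axis starts at 0. Myom3 separates the strains fully under both treatments, Myoz2 does so apart from 1 BPN/3J vehicle library at 616 CPM, and the groups overlap for Tnnt2 and Unc45b.

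Without overlap under Cmpd17b were 4 of the 31 genes, all lower in BPH/2J: Myom3, Myoz2, Mypn and Tmod1. Of all genes tested 6.5% were without overlap as lower and 6.09% as higher. Mypn stood at 96.04, 118, 88.9, 83.8 and 103 CPM in BPN_Cmpd17b and at 77.5 to 83.3 CPM in BPH_Cmpd17b (median 80.5), a difference of -0.26 that edgeR did not call (adjusted p = 0.306). The highest BPH_Cmpd17b value of Mypn and the lowest BPN_Cmpd17b value nearly touched. Tmod1, whose protein caps the slow-growing end of the thin filament, stood at 275, 288, 285, 274 and 273 CPM in BPN_Cmpd17b and at 222 to 262 CPM in BPH_Cmpd17b (median 251), a difference of -0.18 (adjusted p = 0.302). Both genes were called by limma voom (Mypn -0.26, adjusted p = 0.0347, and Tmod1 -0.16, adjusted p = 0.0498), by edgeR on only the 2 groups (-0.30 and -0.17, adjusted p = 0.00768 and 0.0456) and by edgeR without BPN_vehicle replicate 7 and BPH_Cmpd17b replicate 6 (-0.29 and -0.16, adjusted p = 0.0283 and 0.0474). Exons of Tmod1 overlap those of the opposite-strand gene Tstd2 over 32.6% of their bases, with mean counts of 8411 and 461.

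Some genes were higher in BPH/2J under Cmpd17b by estimate, 11 of the 31, and none of them passed the threshold. Myh7b ran through 98.9 to 164 CPM in BPN_Cmpd17b (median 134.5) and 159 to 236 CPM in BPH_Cmpd17b (median 172). In 5 of 6 BPH_Cmpd17b libraries it lay above all of BPN_Cmpd17b, with a difference of 0.53 ± 0.19 (edgeR adjusted p = 0.0643) and an interval up to 0.92. DESeq2 called it (0.52, adjusted p = 0.0335). Tpm1 stood at 5393 to 6307 CPM in BPN_Cmpd17b (median 5656) and 5662 to 7199 CPM in BPH_Cmpd17b (median 6771). It too lay above all of BPN_Cmpd17b in 5 of 6 libraries, with a difference of 0.23 ± 0.09 (adjusted p = 0.0837), and it passed in DESeq2 (0.23, adjusted p = 0.0243) and in edgeR on batch 1 (0.25, adjusted p = 0.0434). For 27 of the 28 genes not called the interval lay within 1.5-fold, with Myh7b the exception.

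The comparison of Cmpd17b with vehicle in BPH/2J asked what the drug did in the hypertensive ventricle. EdgeR called 0 of the 31 genes and 0% of the 15543 tested. At an unadjusted p under 0.05 there were 0 of the 31 and 287 of all genes, and DESeq2 and limma voom also called 0 of the 31. Estimates ran from -0.27 (Tcap) to 0.22 (Myom3), with 19 positive and 12 negative, and every adjusted p was 1. Tcap, the titin cap, stood at 1342 to 2809 CPM in BPH_vehicle (median 2188) and 937 to 2306 CPM in BPH_Cmpd17b (median 2215). The lowest of these was BPH_Cmpd17b replicate 6, the library with high fibroblast markers, and the other 5 libraries of its group held 2093 CPM or more. For 30 of the 31 genes the interval excluded a change of 1.5-fold in either direction, and Tcap's reached down to -0.59. No gene of the 31 was without overlap between these groups, nor between those in BPN/3J, where 0.0515% and 0.148% of all genes tested were without overlap as higher and 0.0257% and 0.193% as lower. Each drug comparison shares a group of libraries with each strain comparison, so their values are not independent. The strain comparisons rest on separate libraries, and so do the drug comparisons, but all come from the same fit with its shared batch term.

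For the genes called between the strains the drug comparison in BPH/2J gave small estimates. Myom3 had means of 2.56 ± 0.667 CPM in BPH_vehicle and 3.04 ± 0.290 CPM (n = 6) in BPH_Cmpd17b, a difference of 0.22 (interval -0.06 to 0.51). Myoz2 had means of 637 ± 36.1 and 670 ± 38.5 CPM, a difference of 0.07 (interval -0.10 to 0.24). For Tnnt2 the difference was 0.03 and for Unc45b -0.07, both with intervals inside 1.5-fold. Of the thick filament genes with the highest CPM, Myh6 differed by 0.01 and Myl2 by -0.13.

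In BPN/3J the drug comparison gave the same count. EdgeR called 0 of the 31 genes and 0% of all tested, while 2 of the 31 and 1506 of all genes had an unadjusted p under 0.05. DESeq2 called 1 gene of all tested and 0 of the 31, and limma voom called 0. The 2 genes were Myh7b, at 122 to 287 CPM in BPN_vehicle (median 170) and 98.9 to 164 CPM in BPN_Cmpd17b (median 134.5), and Tnnc1, at 2140 to 3586 CPM (median 2516) and 2063 to 2599 CPM (median 2337). Their differences were -0.39 and -0.25, each with an adjusted p of 0.514, and both groups overlapped. The highest Myh7b value, 287 CPM, was that of BPN_vehicle replicate 7. All 5 genes of actin binding and thin filament length had positive estimates here, from 0.10 to 0.22, and all 5 thick filament genes had negative ones, from -0.39 to -0.02. BPN_vehicle replicate 7 was low in the first set, with Lmod2 at 171 CPM against 396 to 551 in the other 6 libraries. Without it the first set ran from -0.04 (Lmod2) to 0.11 (Tmod1), and the difference of Myh7b was -0.21. The interval lay within 1.5-fold for 28 of the 31 genes, with Myh7b, Tcap and Pdlim5 the exceptions.

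**Figure D4:**
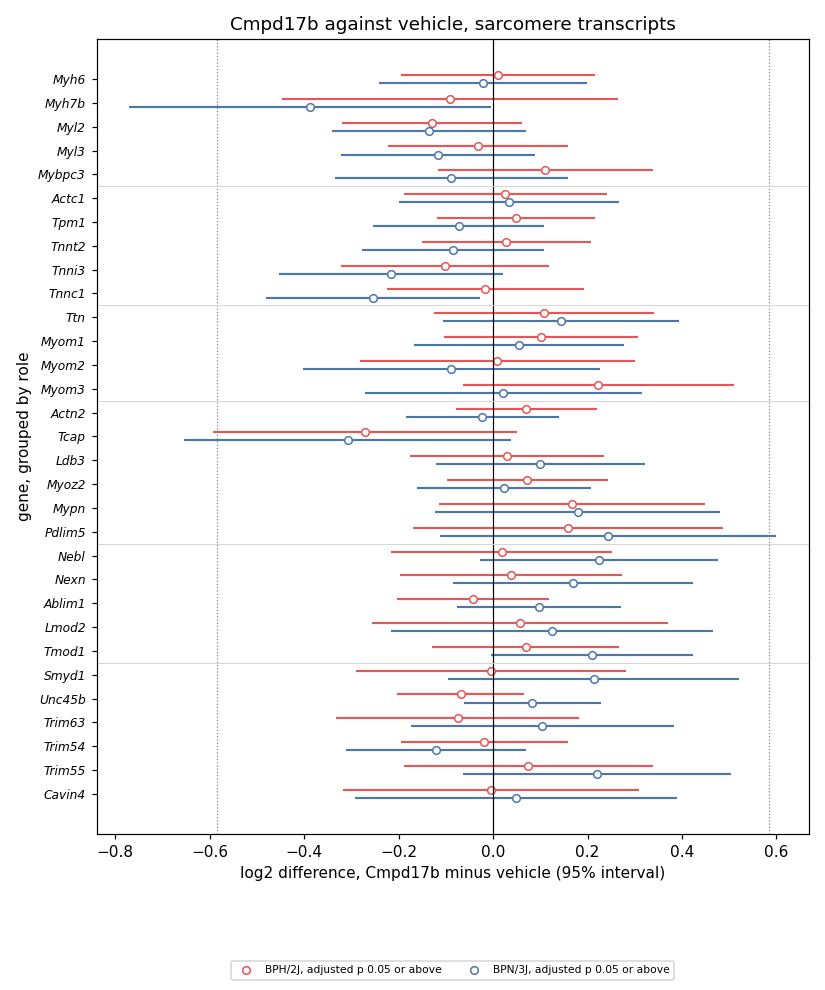
Log2 difference of Cmpd17b minus vehicle for the 31 genes (rows, by role) in BPH/2J (red) and BPN/3J (blue), with 95% intervals; dotted lines mark 1.5-fold. All points are open, with estimates from -0.27 to 0.22 in BPH/2J and from -0.39 to 0.24 in BPN/3J.

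The difference between the strains in the drug effect, tested as an interaction, was called for 0 of the 31 genes and 0% of all genes tested. At an unadjusted p under 0.05 it held 0 of the 31 and 595 of all genes. Estimates ran from -0.22 (Smyd1) to 0.30 (Myh7b), with a smallest adjusted p of 0.917 by edgeR, and DESeq2 and limma voom called 0 of the 31. For 28 of the 31 genes the interval lay within 1.5-fold, with Myh7b, Myom3 and Smyd1 the exceptions.

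How tightly the genes were held differed between the groups. The median coefficient of variation of the 31 genes was 20.1% in BPN_vehicle, 10.6% in BPH_vehicle, 9.20% in BPH_Cmpd17b and 7.20% in BPN_Cmpd17b, and these were not tested against each other. BPN_vehicle holds replicate 7, and BPN_Cmpd17b holds batch 1 only. The tightest single values were Tmod1 in BPN_Cmpd17b (2.53%), Mypn in BPH_Cmpd17b (2.59%) and Myom1 in BPH_vehicle (3.44%). Tcap varied most in both Cmpd17b groups (26.4% in BPH_Cmpd17b, 19.5% in BPN_Cmpd17b), Myom3 in BPH_vehicle (26.01%) and Myh7b in BPN_vehicle (33.7%).

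For 7 of the 31 genes a fetal, atrial or skeletal relative with a like role was chosen for comparison. The log2 ratio of each pair, with 0.5 CPM added to each gene, was compared over libraries by a two-sided exact permutation test. There were 28 comparisons, 7 pairs in 4 contrasts, and 7 had a Benjamini-Hochberg adjusted p under 0.05, all of them between strains. The adult member was the main one in each library. Myh6 made up 88.2% to 95.4% of the reads of Myh6 and Myh7, the slow beta heavy chain. Myh6 and Myh7 are near-identical over long stretches, so the split of their reads is uncertain. In the other 6 pairs the adult gene held at least 81.5% of the pair's reads, the lowest being Actc1 in BPH_Cmpd17b replicate 6.

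Cardiac actin was higher relative to skeletal actin in BPH/2J under vehicle. Acta1, skeletal alpha-actin, which the heart also makes, ran from 701 to 1286 CPM in BPN_vehicle (median 995) and 373 to 612 CPM in BPH_vehicle (median 506), with no overlap. The log2 ratio of Actc1 to Acta1 was 3.02 ± 0.316 (SD, n = 7) in BPN_vehicle and 3.99 ± 0.282 (n = 7) in BPH_vehicle, higher by 0.97 (exact permutation test, adjusted p = 0.00816), with all 7 BPH_vehicle libraries above all 7 others. Batch 1 alone gave 1.08 (exact permutation test, adjusted p = 0.0444). Under Cmpd17b the strain difference of this ratio was 0.11 (exact permutation test, adjusted p = 0.899), and without BPH_Cmpd17b replicate 6 it was 0.37 (exact permutation test, adjusted p = 0.148). The drug comparison in BPH/2J gave -0.53 (exact permutation test, adjusted p = 0.0707), with BPH_Cmpd17b replicate 6 at 2.14 and the other 5 libraries of that group at 3.50 to 3.93. Without BPH_Cmpd17b replicate 5 that difference was called (-0.62, exact permutation test, adjusted p = 0.0442), and without other single libraries it was between -0.60 and -0.26 at adjusted p values not under 0.05. Whether the strain difference itself changed with the drug was not tested.

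The ratio of the adult gene to its relative was lower in BPH/2J under both treatments for 3 fetal or atrial relatives. In the 25 libraries edgeR called none of these adult genes, Tnni3, Tpm1 and Myl3, in either strain comparison. Under vehicle and Cmpd17b their own differences were -0.24 and -0.13 (Tnni3), 0.11 and 0.23 (Tpm1) and -0.08 and 0.01 (Myl3). Slow skeletal troponin I (Tnni1), the fetal form, was at 0.189 CPM or less in every BPN/3J library and at 0.323 to 1.52 CPM in every BPH/2J library. The log2 ratio of Tnni3 to Tnni1 differed by -1.47 between BPH/2J and BPN/3J under vehicle (exact permutation test, adjusted p = 0.00816) and by -1.30 under Cmpd17b (exact permutation test, adjusted p = 0.00932), without overlap in both. At such low levels of Tnni1 the size depends on the amount added: with 0.1 CPM the difference under vehicle was -2.76 and with 1 CPM it was -1.03. Beta-tropomyosin (Tpm2), a form of slow muscle and the fetal heart, had medians of 13.4 CPM in BPN_vehicle, 13.2 in BPN_Cmpd17b, 37.4 in BPH_vehicle and 37.2 in BPH_Cmpd17b. The log2 ratio of Tpm1 to Tpm2 differed by -1.18 under vehicle and -1.27 under Cmpd17b (exact permutation test, adjusted p = 0.00932 for both). Without batch 2 the first of these was -0.99 (exact permutation test, adjusted p = 0.0952). Another tropomyosin gene, Tpm3, was not paired with Tpm1 and was lower in BPH/2J, by -1.29 under vehicle and -1.01 under Cmpd17b.

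The atrial and fetal essential light chain gene Myl4 ran from 0.901 to 4.46 CPM in BPN/3J and from 2.63 to 127 CPM in BPH/2J. The value of 127 CPM was that of BPH_vehicle replicate 7, which also held the atrial regulatory light chain gene Myl7 at 68.8 CPM, where no other library of the 4 groups exceeded 1.51 CPM. The log2 ratio of Myl3 to Myl4 differed by -1.71 under vehicle and -1.51 under Cmpd17b (exact permutation test, adjusted p = 0.00932 for both). Without BPH_vehicle replicate 7 the first was -1.03, and within batch 1 it was -0.98 (exact permutation test, adjusted p = 0.0952). Summed atrial markers (8 genes, Myl4 and Myl7 among them) ran from 193 to 901 CPM in BPN_vehicle, 104 to 224 in BPN_Cmpd17b, 352 to 1157 in BPH_vehicle and 481 to 2581 in BPH_Cmpd17b. Most of each sum was the natriuretic peptide gene Nppa, with means of 425, 171, 549 and 906 CPM in the same order. The summed means were 453, 195, 612 and 936 CPM. Of the 5 atrial markers that could be tested, 2 were higher in BPH/2J under vehicle and 2 under Cmpd17b. Of all genes tested, 9.16% and 7.48% were called higher. Of the defining atrial markers, sarcolipin (Sln) had medians of 0.0353 CPM in BPN_vehicle and 0.0994 in BPH_vehicle and reached 18.8 CPM in 1 BPH_vehicle library, Dkk3 had medians of 2.35 and 4.64 CPM and reached 20.2 CPM, and Bmp10 had a median of 0 in every group. Stard10 of the same list had medians of 15.9 CPM in BPN_vehicle and 11.9 in BPH_vehicle, and Nr2f2 of 7.48 and 7.79 CPM. The part of atrial tissue in the pair ratios was not tested. The ratios of Myh6 to Myh7 (0.37, exact permutation test, adjusted p = 0.0707), Tnnt2 to Tnnt1 (-0.33, 0.0825) and Myl2 to Myl7 (-0.89, 0.861) were not called under vehicle. Without BPH_vehicle replicate 7 the last of these turned positive, at 0.13. Myh6 to Myh7 was called without BPH_vehicle replicate 2 (0.42, exact permutation test, adjusted p = 0.0326) or BPN_vehicle replicate 4 (0.42, 0.049), and was 0.23 without BPN_vehicle replicate 7. Tnnt2 to Tnnt1 was called without BPN_vehicle replicate 3 (-0.40, exact permutation test, adjusted p = 0.0408).

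**Figure D5:**
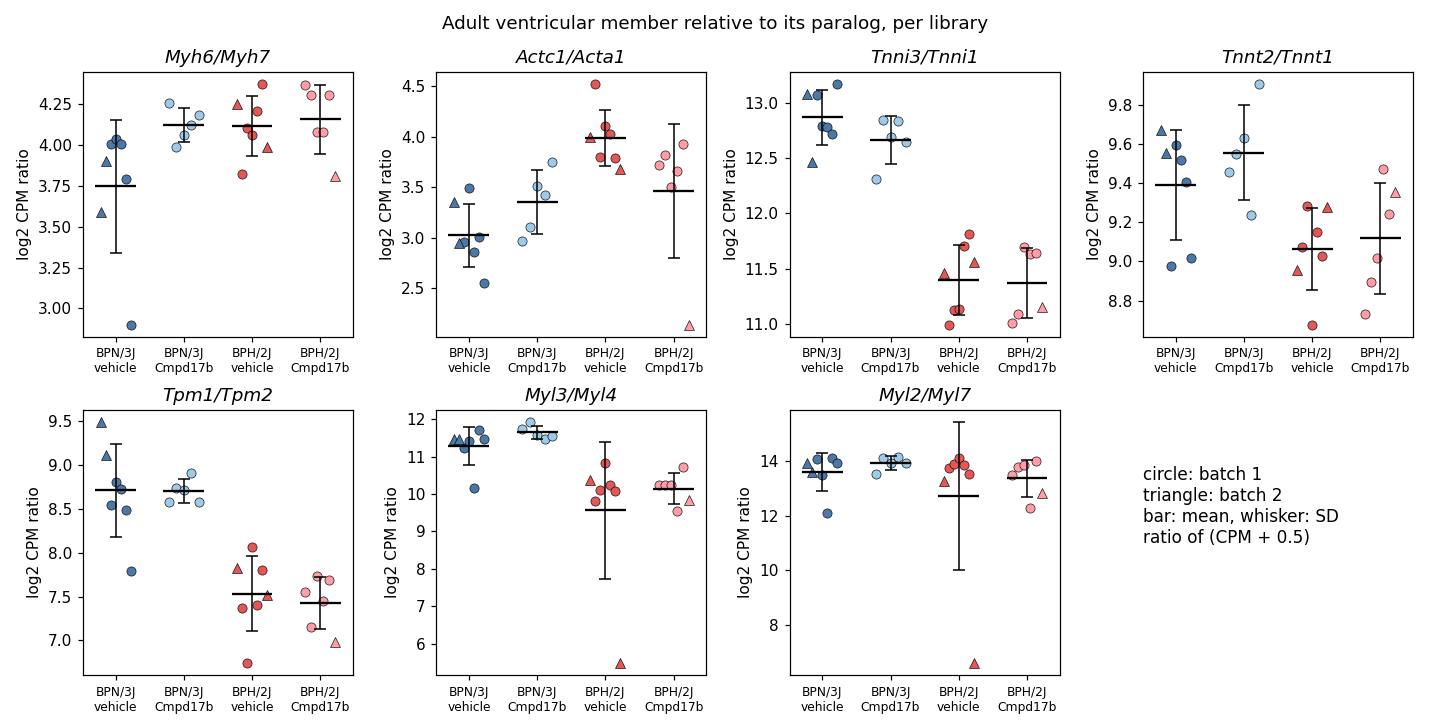
Log2 ratio of an adult ventricular gene to its relative, per library and group, for 7 pairs (circles batch 1, triangles batch 2, bar mean, whisker SD; 0.5 CPM added to each gene). Ratios to Tnni1, Tpm2 and Myl4 are lower in BPH/2J than in BPN/3J in both treatments, with differences of -1.47, -1.18 and -1.71 under vehicle, and 1 BPH/2J vehicle library is far down in Myl3/Myl4 and Myl2/Myl7.

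Around the 31 genes stood 5 lists of other sarcomere-related genes, given as counts beside the same background of 18.9% under vehicle and 14.1% under Cmpd17b. Among 17 paralogous and fetal isoforms tested, 3 were higher and 3 lower in BPH/2J under vehicle, and 4 higher and 2 lower under Cmpd17b. Their median differences were 0.23 in both. Tpm3, a tropomyosin of slow fibres and non-muscle cells, was lower (45.9 CPM in BPN_vehicle and 21.5 in BPH_vehicle by median, -1.29, edgeR adjusted p = 1.75e-09). Tnni1 (3.76, adjusted p = 1.75e-06) and Tpm2 (1.32, adjusted p = 1.26e-05) were higher and the non-muscle heavy chain gene Myh14 was lower (-0.53, adjusted p = 9.11e-05). Under Cmpd17b the 4 with the smallest adjusted p were Tpm3 (-1.01), Tpm2 (1.61), Tnni1 (3.32) and the light chain gene Myl1 (0.89), with adjusted p of 0.000317 or less.

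Of 35 other Z-disc, M-band and costamere genes 2 were higher and 3 lower under vehicle, and 3 higher and 4 lower under Cmpd17b. Ankrd1, a stretch-responsive ankyrin repeat protein of the I-band and nucleus, had medians of 427 CPM in BPN_vehicle, 243 in BPN_Cmpd17b, 1374 in BPH_vehicle and 1389 in BPH_Cmpd17b. It was higher in BPH/2J by 1.53 under vehicle (edgeR adjusted p = 5.23e-07, 7 of 7 libraries) and by 2.43 under Cmpd17b (adjusted p = 5.12e-09, 6 of 6). The LIM adaptor Pdlim1 was lower by both comparisons (-0.51 and -0.38), the intermediate filament gene Synm was lower (-0.56) and Pdlim3 higher (0.46) under vehicle. Under Cmpd17b Synpo2l was higher (0.68) and the focal adhesion gene Vcl lower (-0.36).

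Of 18 genes of actin assembly and filament length 3 were higher and 0 lower under vehicle, and 2 were higher under Cmpd17b. Neb, the giant thin filament ruler of skeletal muscle, had medians of 2.13 CPM in BPN_vehicle and 5.82 in BPH_vehicle and was higher by 1.401 (edgeR adjusted p = 0.00011) and, under Cmpd17b, by 1.45 (adjusted p = 0.000475). Tmod4, a skeletal tropomodulin, was higher by 0.48 and 0.60. Svil, an actin-bundling supervillin gene, was higher under vehicle (0.35). The defining skeletal fast myosin genes Myh1, Myh2 and Myh4 were at or near 0, with group medians of 0.026 CPM or less and 1.89 CPM in the highest library. Of 3 skeletal markers that could be tested 0 were called in either strain comparison, and the summed level of the list's 8 markers, nearly all of it the creatine kinase gene Ckm, ran from 1855 to 2573 CPM in BPN_vehicle, 1870 to 2032 in BPN_Cmpd17b, 1850 to 2231 in BPH_vehicle and 1481 to 2235 in BPH_Cmpd17b.

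Of 26 chaperone, kinase and turnover genes 2 were higher and 5 lower under vehicle, and 2 higher and 2 lower under Cmpd17b. Small heat shock protein genes led the lower ones: Hspb7, a cardiac member that binds filamin, had medians of 3280 CPM in BPN_vehicle and 1670 in BPH_vehicle (-0.78, edgeR adjusted p = 1.6e-06), Cryab differed by -0.40 (adjusted p = 0.000132) and Hspb1 by -0.43 (adjusted p = 0.000243). Capn3, the muscle calpain that binds titin, was higher by 0.95 under vehicle (adjusted p = 3.7e-06) and 1.42 under Cmpd17b (adjusted p = 6.98e-08). Under Cmpd17b Hspb7 (-0.58) and Hspb8 (-0.33) were lower and Unc45a, the non-muscle relative of Unc45b, higher (0.44). Among 25 transcription factors and regulators of cardiac muscle genes 1 was higher and 1 lower under vehicle and 0 higher and 2 lower under Cmpd17b. They were Myocd, the co-activator of serum response factor (0.36, adjusted p = 0.036), Hand2 (-0.48, adjusted p = 0.00522, and -0.80 under Cmpd17b, adjusted p = 0.000128) and Tbx5 (-0.38, adjusted p = 0.032, under Cmpd17b). In both drug comparisons and in the interaction edgeR called 0 genes of these 5 lists.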

How the data were processed

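Left ventricles of 26 mice were profiled by RNA-seq (polyA RNA per the labels). Per the submitters' processing notes, Trim Galore 0.6.7 and STAR 2.7.9a were used, with build GRCm39 (mm39). For the counting program, its strand setting and its annotation, the entry is "not given in the sources used here". The authors deposited 1 table of expected counts, of which 6.69% were not whole; they were rounded. All 26 columns matched a sample, and no pair of libraries was identical. The library labelled BPH_Cmpd17b replicate 7 was left out, which left 25.

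The filter was filterByExpr of edgeR 4.0.16 in R 4.3.3, by group (15543 of 40413 genes kept). After TMM scaling, 1 robust quasi-likelihood fit covered the 25 libraries, with a coefficient for each group plus batch. BPN_Cmpd17b has batch 1 only, so the batch effect rests on the remaining groups. Adjusted p-values are Benjamini-Hochberg over every gene tested, with a threshold of 0.05. They set each difference against the spread between mice. Intervals are at 95%. The pair ratios used a two-sided exact permutation test over libraries, adjusted over the 28 comparisons. Alternatives were RLE size factors, DESeq2 1.42.0, limma 3.58.1 voom with quality weights, 2 other filters, mitochondrial genes removed, batch left out of the model, batch 1 or batch 2 alone, only the 2 groups compared, all 26 libraries, 23 libraries, other amounts added to the ratios, and leaving out each library. The fit was tested on simulated data.

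The 31 genes and the lists were chosen with earlier results of these data known. Every gene of the 31 is accounted for. Those called are given in full, and up to 4 genes with the smallest adjusted p are named from each other list, of which 1 is not reported here. Myh6, Tnni3, Tnnc1, Myom1, Tcap, Mypn, Tmod1, Myh7b, Tpm1 and the genes of the pairs are described as well, some of them after their values were seen. Promoter windows come from RefSeq on GRCm38.p6 and exon lengths from GENCODE M21, which are other builds than that of the counts.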

Additional observations from a re-analysis of the deposited data

Results flagged for a closer look

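In each group the highest and lowest library of every sarcomere gene's CPM and of every pair ratio was set against the rest of the group. For a single group, chance alone would raise a flag about 1 time in 20. Here 26 of 152 groups had a library far from the others, in 6 libraries. The genes and ratios were measured in the same libraries, so these flags are not independent. BPN_vehicle replicate 7 was far below its group in Cavin4 (45.1 CPM, the others at 103 or more), Ldb3 (399.7, others from 638), Lmod2 (171, others from 396), Myoz2 (616, others from 823), Nexn (235, others from 424), Pdlim5 (197, others from 564), Smyd1 (200.3, others from 425), Tmod1 (150.1, others from 231), Trim55 (38.1, others from 78.9) and Trim63 (87.1, others from 170). It was far above its group in Myh7b (287 CPM, the others at 177 or less) and below it in the log2 ratio of Myh6 to Myh7 (2.90, others from 3.59).

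BPH_Cmpd17b replicate 6 was far below its group in Myl2 (4258 CPM, the others at 7742 or more), Smyd1 (359, others from 479), Tcap (937, others from 2093), Tnni3 (2329, others from 3327) and the log2 ratio of Actc1 to Acta1 (2.14, others from 3.50), and above it in Pdlim5 (975, others up to 728). BPH_vehicle replicate 1 was low in Myl3 (4567 CPM, others from 5406) and Tpm1 (5192, others from 6237). BPH_vehicle replicate 4 was high in Lmod2 (535 CPM, others up to 447). BPH_vehicle replicate 7 was high in Pdlim5 (850.1 CPM, others up to 693) and low in the log2 ratios of Myl2 to Myl7 (6.59, others from 13.3) and Myl3 to Myl4 (5.48, others from 9.82). BPN_vehicle replicate 5 was low in the same ratios, at 12.1 (others from 13.5) and 10.2 (others from 11.2).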

How the results depend on the processing

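No result changed sign with a call, and no drug comparison or interaction called a gene of the 31 under any alternative. Myom3 was called in each strain comparison under each alternative, from -1.32 to -1.08 under vehicle and from -1.13 to -1.01 under Cmpd17b, and with 1 library left out from -1.38 to -1.19 under vehicle. In all 26 libraries 1 gene was called lower in each strain comparison in place of 3, and Myoz2 was not (adjusted p = 0.802 and 0.69). Under vehicle 6 were lower by limma voom (26.4% of all genes called, against 18.9%). There were 6 in 23 libraries (25.8%, without BPN_vehicle replicate 7 and BPH_Cmpd17b replicate 6), 1 in batch 2 alone, and 2 to 6 with 1 library left out. The 6 were the same genes by voom, in 23 libraries and without BPN_vehicle replicate 7. Voom gave that library a weight of 0.0799, so these 3 settings are not separate evidence. Under Cmpd17b, with 14.1% of all genes called by edgeR, 5 were lower by voom (21.8%), 5 in 23 libraries (19.1%) and 5 with only the 2 groups compared (19.9%), and 2 to 3 with 1 library left out. Higher under Cmpd17b, where 0 had been called, were 2 by DESeq2, 2 by voom, 2 with only the 2 groups compared, 1 in batch 1 and 1 in 23 libraries, among Tpm1 and Myh7b. The cause of these changes was not tested, and batch 2 alone also holds fewer samples. Of the 28 ratio comparisons 7 were called, 5 in batch 1, and 7 to 8 with 1 library left out. No paired analysis was possible because the labels give no shared replicate numbers. Depth limits Myom3 and Tnni1, which have few reads.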
